A study of Mus musculus with 12 samples.

Results

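The genes described here are Cyfip2, Ccdc88c, Setbp1, Mdm1, Ldlrad3, Dnahc12 and Rasgrp2, 7 of the 26608 genes counted in sorted mouse lung cells. They are less often discussed than the usual markers of nonclassical monocytes and were chosen by their counts, which were far higher in nonclassical monocytes than in interstitial macrophages of these same libraries. That contrast is therefore given below only as a description, with no test. All 7 were in every deposited count table, and all 7 were among the 14254 genes that passed the filter on low counts.

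RNA was sequenced from 12 libraries of about 250 sorted cells each, prepared with a stranded kit that takes total RNA from very few cells. All animals were C57Bl/6 mice kept for 3 weeks in hypoxia with a weekly dose of SU5416, an inhibitor of VEGF receptors, so no group breathed room air or went without the drug. The sorted populations were interstitial macrophages (IM) and nonclassical monocytes (RM in the sample names). Each came from Cre-negative mice (CreNeg, labelled Hif1α flox/lox in the samples and flox/flox in the design) or from Cx3cr1cre;Hif1αΔ/Δ mice (CrePos, labelled Hif1α Δ/Δ), with 3 libraries in each of the 4 groups. Cre is driven by Cx3cr1, a chemokine receptor gene expressed by monocytes and by many macrophages, so excision is possible in both sorted populations. Only CrePos mice carried Cre, so effects of Hif1a loss and of the Cre allele itself cannot be told apart. The deletion below means CrePos against CreNeg. Age and sex of the mice are not given here, and nothing states whether a sample number stands for 1 animal, so p-values measure the spread between libraries.

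Nonclassical monocytes stay mostly inside blood vessels, where they crawl along the endothelium by means of integrins, and their development depends on the transcription factor Nr4a1. Crawling needs branched actin, built by the Arp2/3 complex under control of the WAVE complex, and active integrins, which are switched on through the small GTPase Rap1. Hif1a encodes the oxygen-regulated subunit of HIF-1, which drives transcription in hypoxia. Cyfip2 and Rasgrp2 belong to the WAVE and Rap1 pathways, while the other genes have roles in Wnt and G protein signalling (Ccdc88c), chromatin and phosphatase control (Setbp1), ubiquitin ligase binding (Ldlrad3), centrioles (Mdm1) and cilia (Dnahc12).

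Depth lay between 5332600 and 14099500 gene counts per library, so that 1 count was worth 0.0730 to 0.165 CPM (counts scaled to a fixed library total). The sorted populations differed in the markers of their labels. The summed level of 25 nonclassical monocyte genes was 13803 to 22876 CPM in CreNeg RM and 3698 to 4150 CPM in CreNeg IM. That of 22 interstitial macrophage genes was 1681 to 3639 CPM in CreNeg RM and 17898 to 18281 CPM in CreNeg IM. Not every marker followed its label. Between CreNeg RM and IM, 23 nonclassical monocyte genes had a log2 fold change above 0 and 2 below. Of the interstitial macrophage genes, 1 was above and 21 below. Between CrePos RM and IM the numbers were 22 and 3, and 2 and 20. A library that stood apart was CrePos_RM661, with 6112 CPM of nonclassical monocyte markers against 11634 and 12795 CPM in the other CrePos RM libraries, and 10711 CPM of 20 endothelial markers against at most 4711 CPM in the other RM libraries. Each deletion result in RM below is read with and without it. CreNeg RM libraries differed in 8 classical monocyte markers, at 178 CPM in CreNeg_RM648, 5742 in CreNeg_RM657 and 2730 in CreNeg_RM659. Hif1a itself was counted at 207 to 246 CPM in CreNeg RM and 150 to 212 in CrePos RM, and at 212 to 243 in CreNeg IM and 192 to 204 in CrePos IM. These whole-gene counts do not measure excision. Cx3cr1, which is on the nonclassical monocyte list, was at 316 to 433 CPM in CreNeg IM and 129 to 295 in CrePos IM. In RM it was at 169 to 302 CPM in CreNeg and 46.9 to 198 in CrePos, so in CreNeg it was higher in IM.

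The genes lie on different chromosomes, so none is a neighbour of another. In GENCODE M21 (GRCm38) they are Cyfip2 at chr11:46193850-46312859 on the minus strand, Ccdc88c at chr12:100911523-101029056 (minus), Mdm1 at chr10:118141811-118168997 (plus), Ldlrad3 at chr2:101950203-102186385 (minus), Dnahc12 (Dnah12 in the annotation) at chr14:26693274-26891703 (plus) and Rasgrp2 at chr19:6399340-6415216 (plus), with Setbp1 located below. Several are long: Setbp1 spans 359 kb, Ldlrad3 236 kb and Dnahc12 198 kb, at the 98.3, 96.3 and 95.1 percentiles of 13775 tested genes with a gene model, whose median is 23.4 kb. Mdm1 (27.2 kb) and Rasgrp2 (15.9 kb) are ordinary in length, so length is not shared by all. Exons of Ccdc88c, Mdm1 and Rasgrp2 overlap transcripts on the opposite strand (A630072L19Rik, Gm47958 and Gm14965), and as no source used here gives the strand setting of the counting, reads of each pair may not have been told apart.

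Promoter windows from 250 bases before to 50 bases after the start site were found in the RefSeq table (GRCm38.p6) for 5 of the genes, Cyfip2, Mdm1, Ldlrad3, Dnahc12 and Rasgrp2. Those of Cyfip2, Ldlrad3 and Dnahc12 are printed to show a CpG-rich, an intermediate and a CpG-poor window among genes with a like RM pattern. Capitals mark every CpG dinucleotide.
Cyfip2 (chr11:46312309-46312608, minus strand): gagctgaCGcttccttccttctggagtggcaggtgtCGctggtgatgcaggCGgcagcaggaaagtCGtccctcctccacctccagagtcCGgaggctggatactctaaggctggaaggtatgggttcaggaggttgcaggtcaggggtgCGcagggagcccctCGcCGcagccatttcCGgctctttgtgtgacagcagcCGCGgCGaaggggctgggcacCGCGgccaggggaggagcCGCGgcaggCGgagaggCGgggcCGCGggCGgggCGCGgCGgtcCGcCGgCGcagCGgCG
Ldlrad3 (chr2:102186411-102186710, minus strand): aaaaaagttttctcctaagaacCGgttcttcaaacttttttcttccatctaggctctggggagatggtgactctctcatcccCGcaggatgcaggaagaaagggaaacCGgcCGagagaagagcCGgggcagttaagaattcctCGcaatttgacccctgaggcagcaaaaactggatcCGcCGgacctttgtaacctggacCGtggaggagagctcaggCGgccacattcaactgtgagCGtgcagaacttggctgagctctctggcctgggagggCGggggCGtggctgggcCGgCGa
Dnahc12 (chr14:26691304-26691603, plus strand): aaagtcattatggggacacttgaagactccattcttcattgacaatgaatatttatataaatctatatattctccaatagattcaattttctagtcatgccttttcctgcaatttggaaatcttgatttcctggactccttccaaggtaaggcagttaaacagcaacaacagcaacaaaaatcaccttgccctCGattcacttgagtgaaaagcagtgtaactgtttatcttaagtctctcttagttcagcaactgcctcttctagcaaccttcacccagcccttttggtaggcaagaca
The Cyfip2 window held 29 CpG, the Ldlrad3 window 15 and the Dnahc12 window 1. The ratio of observed to expected CpG was 0.803, 0.638 and 0.0952, against a median of 0.384 over 32851 promoter windows. Mdm1 (0.926) and both Rasgrp2 windows (0.906 and 0.728) were CpG-rich like Cyfip2, and Dnahc12 alone had a CpG-poor window. The Dnahc12 and Ldlrad3 windows, from RefSeq, lie wholly outside the GENCODE gene bounds given above, on the upstream side. Which start sites were used in RM was not measured. The following 5 short motifs were searched on both strands: AAGGTCA (NR4A), ACGTG (the HIF core), GGAAGT (ETS), TTGCNNAA (C/EBP) and TGTGGT (RUNX), which occur in 4.72, 19.6, 23.8, 10.8 and 16.8% of all windows. The only match in the 6 windows was a C/EBP motif on the minus strand of Dnahc12, at bases -5 to 3 around the start site. A match is a string of letters and not a measured binding site, and no match says only that these letters are not in the window.

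Among the members, Cyfip2 was the most highly counted in RM. It encodes a subunit of the WAVE complex that links Rac to branched actin. Its level was 939.6, 748 and 606 CPM in CreNeg_RM648, CreNeg_RM657 and CreNeg_RM659, and 529, 579 and 192 CPM in CrePos_RM649, CrePos_RM650 and CrePos_RM661. All CrePos RM libraries thus lay below all CreNeg RM libraries, also when CrePos_RM661 is set aside. Library values below follow this same order of sample numbers. The mean was 764 ± 168 CPM (SD, n = 3) in CreNeg RM and 433 ± 210.1 CPM (SD, n = 3) in CrePos RM, a log2 fold change of -0.82 (SE 0.39, 95% interval -1.65 to 0.01) that did not pass edgeR's quasi-likelihood test (adjusted p = 0.319). Without CrePos_RM661 the log2 fold change was -0.46 (adjusted p = 0.403). The non-exonic share of a library here means reads that HTSeq gave to no feature, as a percentage of those reads plus gene counts. As annotation and strand setting are not known, it may also hold reads of unannotated or opposite-strand exons. With that share as a covariate the log2 fold change was -1.32 and passed in edgeR (adjusted p = 0.0378). The share was 55.1% in CrePos_RM661 and 71.9 and 72.7% in the other CrePos RM libraries, against 58.1 to 66.8% in CreNeg RM.

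In IM, Cyfip2 was low, with the higher values in CrePos. CreNeg_IM648, CreNeg_IM659 and CreNeg_IM660 had 8.83, 7.75 and 19.9 CPM, and CrePos_IM649, CrePos_IM650 and CrePos_IM661 had 24.2, 21.6 and 20.7 CPM. Again the groups did not overlap, with CrePos higher. The log2 fold change was 0.87 (SE 0.40, adjusted p = 0.500), so this too missed the threshold. Cyfip2 was 62.8-fold higher in RM than in IM among CreNeg libraries and 19.5-fold among CrePos libraries.

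Ccdc88c encodes DAPLE, which binds Dishevelled in Wnt signalling and activates inhibitory G proteins. In CreNeg RM it was counted at 423, 220.4 and 264 CPM, and in CrePos RM at 337, 289.6 and 98.0 CPM. The ranges overlapped, and the log2 fold change of -0.32 (SE 0.46, adjusted p = 0.780) became 0.05 without CrePos_RM661. Its IM levels showed the clearest deletion difference of the set. CreNeg IM libraries had 2.41, 5.46 and 5.60 CPM and CrePos IM libraries had 26.3, 16.7 and 9.47 CPM, with no overlap. The log2 fold change in IM was 1.96 (SE 0.49, 95% interval 0.92 to 3.01), with an unadjusted p of 0.00112 and an adjusted p of 0.115 by edgeR. It passed when CrePos_RM661 was left out (adjusted p = 0.0276) and in DESeq2 (adjusted p = 0.00812), and not with lane as a covariate (adjusted p = 0.262) or with the non-exonic share as a covariate (log2 fold change -0.20). That share was 38.5 to 44.2% in CreNeg IM and 59.2 to 69.8% in CrePos IM, so genotype and non-exonic share cannot be told apart in IM.

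Setbp1 encodes a nuclear protein that binds SET, an inhibitor of the phosphatase PP2A, and it is mutated in some myeloid leukaemias. The gene lies at chr18:78750380-79109391 on the minus strand (GRCm38). Its RM levels were 330.2, 220.3 and 179 CPM in CreNeg and 359, 339.7 and 86.0 CPM in CrePos. The CrePos libraries thus held both the highest and the lowest values. The log2 fold change was 0.11 (SE 0.59, adjusted p = 0.956), with a 95% interval from -1.16 to 1.38, and it was 0.52 without CrePos_RM661. In IM, Setbp1 was counted at 4.01, 9.08 and 2.16 CPM in CreNeg and 13, 22.9 and 4.47 CPM in CrePos. These ranges overlapped (log2 fold change 1.40, SE 0.63, adjusted p = 0.481).

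Ldlrad3 encodes a receptor of the LDL receptor class A type that binds ubiquitin ligases of the Nedd4 family. RM libraries had 307, 199.9 and 145 CPM in CreNeg and 169.6, 159 and 65.3 CPM in CrePos. The groups overlapped in this middle range. A log2 fold change of -0.73 (SE 0.37, adjusted p = 0.357) in RM kept its sign without CrePos_RM661, at -0.40. Of all 7 genes, Ldlrad3 was the steadiest in IM, with 7.30, 10.6 and 8.0 CPM in CreNeg and 14, 12.2 and 8.66 CPM in CrePos (log2 fold change 0.43, SE 0.38, adjusted p = 0.888).

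Rasgrp2 encodes CalDAG-GEFI, the calcium-responsive exchange factor that loads Rap1 with GTP ahead of integrin activation, best known in platelets. CreNeg RM libraries had 91.0, 65.2 and 56.0 CPM and CrePos RM libraries 64.2, 109 and 26.6 CPM, so that the CrePos values ran from below to above the CreNeg range. No deletion difference was detectable (log2 fold change -0.09, SE 0.54, 95% interval -1.24 to 1.06, adjusted p = 0.959). IM levels were 2.12, 7.75 and 2.96 CPM in CreNeg and 5.11, 5.92 and 4.06 CPM in CrePos (log2 fold change 0.23, adjusted p = 0.999). The sum of 12 platelet markers was 56.5 to 110 CPM in the 6 RM libraries and 175 to 317 CPM in the 6 IM libraries. Gene by gene they were mixed. Of 9 tested, 5 were above 0 and 4 below between CreNeg RM and IM (median log2 fold change 0.16, beside -0.06 over all genes). Between CrePos RM and IM it was again 5 and 4 (median 0.15, beside -0.14).

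Mdm1 encodes a microtubule-binding protein of centrioles that restrains their duplication. Its level was close among CreNeg RM libraries, at 140.5, 110.1 and 148 CPM, and was at 135, 167 and 50.2 CPM in CrePos RM. The log2 fold change in RM was -0.18 (SE 0.51, adjusted p = 0.907) and 0.19 without CrePos_RM661. In IM the levels were 8.32, 1.84 and 5.44 CPM in CreNeg and 5.60, 8.29 and 2.71 CPM in CrePos, which overlapped throughout (log2 fold change 0.09, adjusted p of 0.9995).

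Dnahc12 encodes a heavy chain of the dynein motors that bend motile cilia and sperm tails. Its level was 108, 85.6 and 111 CPM in CreNeg RM and 95, 133 and 65.9 CPM in CrePos RM, again with the CrePos values on both sides (log2 fold change -0.05, SE 0.68, 95% interval -1.51 to 1.40, adjusted p = 0.984). In CreNeg IM, CreNeg_IM648 had 2.99 CPM, CreNeg_IM660 had 1.04 CPM and CreNeg_IM659 had no count, which allows up to 0.221 CPM (3 counts; this limit covers counting error only). CrePos IM libraries had 7.06, 7.50 and 4.06 CPM, all above CreNeg IM. The log2 fold change in IM was 2.19 (SE 0.76, 95% interval 0.57 to 3.82), with an adjusted p of 0.292 in edgeR and 0.0476 in DESeq2, and it rests on 54 and 145 counts in all per group.

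**Figure D1:**
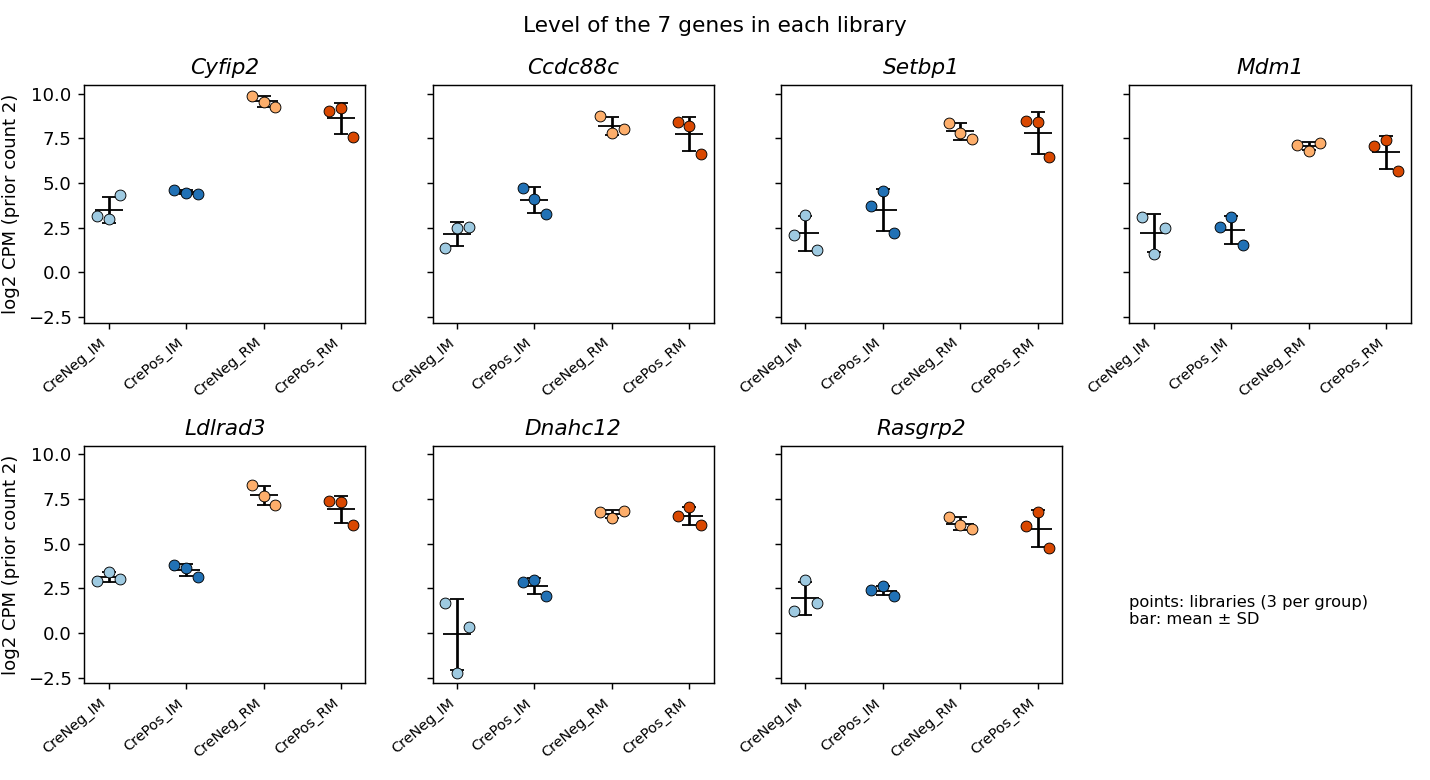
Level of each gene in each library on the log2 CPM scale (vertical axis, prior count 2), by group along the horizontal axis; points are libraries and bars the mean ± SD of 3. In every panel all 6 RM libraries lie above all 6 IM libraries, and the lowest RM point is CrePos_RM661.

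For all 7 genes, each of the 6 RM libraries was above each of the 6 IM libraries. This holds for 2.15% of the 14254 genes tested, and since the genes were chosen for this contrast nothing further is read from it. In CreNeg libraries the RM to IM fold ran from 16.5 (Rasgrp2) to 74.6 (Dnahc12), and in CrePos libraries from 11.3 (Ldlrad3) to 21.1 (Mdm1). Rasgrp2 was nearest to overlapping, with its lowest RM library 3.44-fold above its highest IM library, and Dnahc12 was farthest, at 8.79-fold. For scale, the 25 nonclassical monocyte markers had a median log2 fold change of 2.67 between CreNeg RM and CreNeg IM, with 23 above 0 and 2 below. Treml4 and Ace, 2 established markers above that median, had 6.42 and 3.15.

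Counts grow with transcript length, so levels of different genes were compared per kb of their longest coding transcript. Cyfip2 led CreNeg RM at 115 ± 25.2 CPM per kb (SD, n = 3) and Dnahc12 was lowest at 8.46 ± 1.16. Between them came Ldlrad3 (56.7 ± 21.5), Mdm1 (43.2 ± 6.51), Ccdc88c (40.1 ± 14.1), Rasgrp2 (30.8 ± 7.90) and Setbp1 (24.4 ± 7.87), in CPM per kb. Neighbours among these 5 differed by less than the larger of their SDs. Cyfip2 stood above Ldlrad3, and Setbp1 above Dnahc12, by more than the sum of their SDs.

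None of the 7 genes passed the edgeR test for the deletion in RM, where 0.421% of all genes tested did, and none had an unadjusted p under 0.05, where 16.1% of all genes did. None passed in DESeq2 either, where 7.04% of all genes with an adjusted p did. The deletion contrasts share the CreNeg and CrePos libraries with the contrast that chose the genes. Of the 7, 6 had a log2 fold change below 0 in RM, with a median of -0.18 beside -0.10 over all genes tested. One of the 7, Cyfip2, did not overlap between the RM groups, with CrePos lower, beside 11.4% of all genes. In IM, none passed in edgeR (0.288% of all genes did), 4 had an unadjusted p under 0.05 (9.84% of all genes did), and 2, Ccdc88c and Dnahc12, passed in DESeq2 (4.62% of all genes with an adjusted p did). All 7 had a log2 fold change above 0 in IM, with a median of 0.87 beside 0.07 over all genes. Cyfip2, Ccdc88c and Dnahc12 did not overlap, with CrePos higher, beside 16.2% of all genes.

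The effect of the deletion in RM minus that in IM was below 0 for all 7 genes, with a median of -1.30 beside -0.19 over all genes tested, of which 56.7% were below 0. It is also the RM to IM log2 fold change in CrePos minus that in CreNeg, so it is made of the values by which the genes were chosen. It was -1.69 for Cyfip2 (SE 0.56, adjusted p = 0.454) and -2.29 for Ccdc88c (SE 0.67, adjusted p = 0.376) on the log2 scale in edgeR. Dnahc12 had -2.24 (adjusted p = 0.554) and Ldlrad3 -1.16 (adjusted p = 0.557). These 4 had an unadjusted p under 0.05, as did 8.92% of all genes, and none of the 7 passed after adjustment in edgeR (0% of all genes tested did) or in DESeq2 (where 0.498% of all genes with an adjusted p did). As the genes were chosen by these values, nothing is read from such counts or from the median. For Setbp1, Mdm1 and Rasgrp2 the difference was -1.30, -0.27 and -0.32, each within 2 SE of 0.

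**Figure D2:**
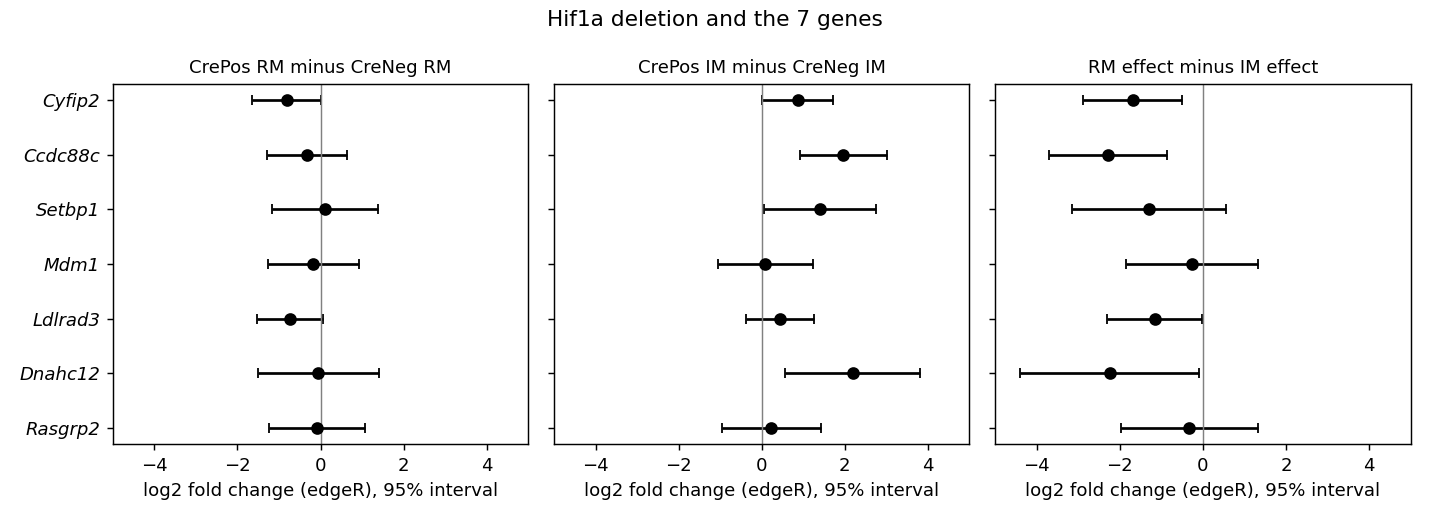
Log2 fold change with its 95% interval (horizontal axis, edgeR) for each gene (rows), for the deletion in RM, the deletion in IM and the difference of both effects. All intervals in RM include 0, while those of Cyfip2, Ccdc88c, Setbp1 and Dnahc12 in IM do not before adjustment.

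CrePos_RM661 was the lowest RM library for each of the 7 genes. Relative to the mean of the CreNeg RM libraries, the median of the 7 genes was -1.45 on the log2 scale in CrePos_RM661, from -1.97 (Cyfip2) to -0.61 (Dnahc12). In CrePos_RM649 the median was -0.09 and in CrePos_RM650 it was 0.34. The nonclassical monocyte markers of CrePos_RM661 were also low and its endothelial markers high, as given above, and their part in the low values was not tested. Endothelial markers were higher in all CrePos RM libraries (4206 to 10711 CPM) than in all CreNeg RM libraries (1159 to 3452 CPM). In bulk RNA, fewer cells of a type and less RNA per cell cannot be told apart.

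Without CrePos_RM661 the RM log2 fold changes of Ccdc88c, Mdm1, Dnahc12 and Rasgrp2 turned positive (0.05, 0.19, 0.17 and 0.29), and those of Cyfip2 and Ldlrad3 stayed negative. CrePos_RM661 was sequenced in lane 8, and the lanes differed. In lane 6, with 1 CrePos and 2 CreNeg RM libraries, 5 genes were higher in CrePos and 2, Cyfip2 (-0.22) and Ldlrad3 (-0.10), were lower on the log2 scale. In lane 8, with 2 CrePos and 1 CreNeg RM library, all 7 were lower, from -1.56 (Cyfip2) to -0.44 (Dnahc12). For the IM libraries, all 7 were higher in CrePos in lane 5 and all but Mdm1 (-1.05) in lane 7.

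**Figure D3:**
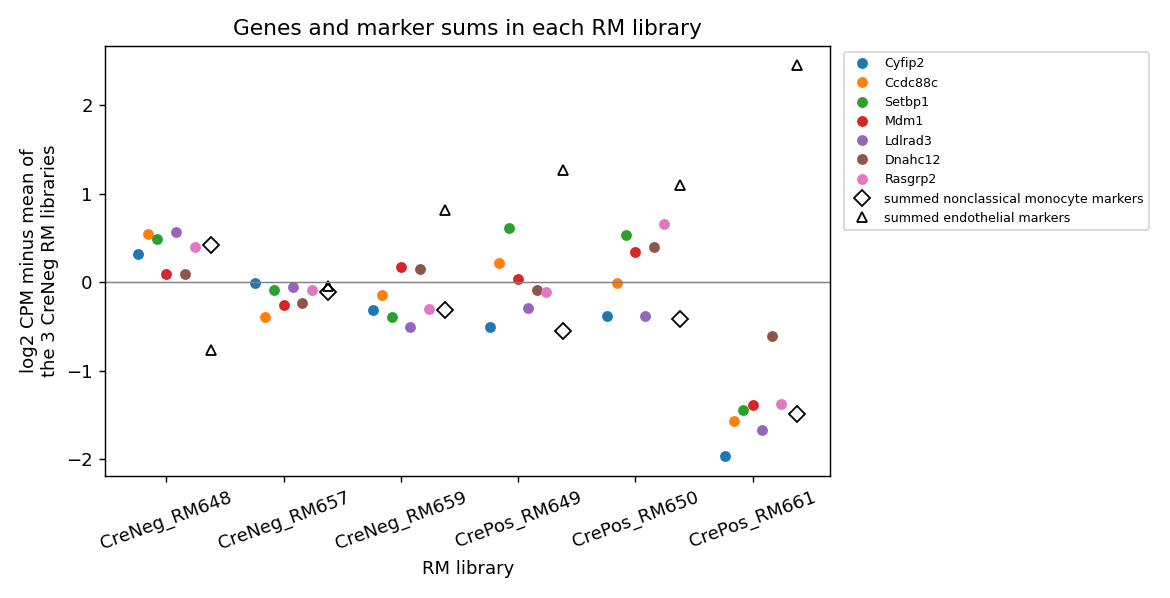
Log2 CPM of each gene in each RM library minus the mean of the 3 CreNeg RM libraries (vertical axis), with the summed nonclassical monocyte markers (diamonds) and endothelial markers (triangles) on the same scale. In CrePos_RM661 all 7 genes lie between -1.97 and -0.61, whereas in CrePos_RM649 and CrePos_RM650 they lie on both sides of 0.

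Each gene's share of the summed level of the 7 was also compared between the groups. Cyfip2 made up 41.9 ± 2.99% (SD, n = 3) of the summed CPM of the 7 genes in CreNeg RM and 32.3 ± 0.845% (SD, n = 3) in CrePos RM. The ranges, 40.2 to 45.3% and 31.3 to 32.9%, did not overlap. Setbp1 had the higher share in CrePos RM, at 11.8 to 14.1% in CreNeg RM and 14.7 to 21.3% in CrePos RM. Shares of the other 5 genes overlapped between the RM groups. In IM, the share of Ccdc88c was 6.69 to 12.8% in CreNeg and 17.5 to 27.6% in CrePos, without overlap, and Ldlrad3 was lower, at 17.7 to 25.0% and 12.9 to 16%. Shares depend on each other, and no test was made of them.

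A second view compares each gene with its own relatives, per kb of transcript. Cyfip2 and Cyfip1 are alternative subunits of the WAVE complex. Cyfip1 was at 380.7 ± 5.38 CPM in CreNeg IM, 368 ± 32.9 in CrePos IM, 271 ± 22.2 in CreNeg RM and 267 ± 75.0 in CrePos RM (SD, n = 3 each). Cyfip2 made up 1.93 to 4.76% of the pair in CreNeg IM and 5.34 to 5.64% in CrePos IM, but 70.1 to 75.5% in CreNeg RM and 50.5 to 65.8% in CrePos RM. The deletion groups did not overlap in either cell type. An exact two-sided permutation test over 3 against 3 libraries gave p = 0.1 for each, the smallest it allows (adjusted p = 0.267 over 8 family comparisons), so this design cannot reach 0.05.

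Ccdc88c is 1 of 3 Ccdc88 genes, with Ccdc88a (GIRDIN) and Ccdc88b. It made up 0.900 to 2.23% of the family in CreNeg IM, 2.0 to 7.19% in CrePos IM, 29.4 to 32.4% in CreNeg RM and 31.5 to 40.7% in CrePos RM. Ccdc88a was the largest member in RM, at 67.6 ± 24.3 and 47.8 ± 22.2 CPM per kb in CreNeg and CrePos (SD, n = 3), and Ccdc88c was at 40.1 ± 14.1 and 32.0 ± 16.8. The groups of each cell type overlapped (exact permutation p = 0.2 in RM and in IM, adjusted p = 0.320).

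Among the 4 Rasgrp genes, Rasgrp2 took 2.42 to 7.57% in CreNeg IM and 4.64 to 6.59% in CrePos IM. Its share was 38.3 to 62.0% in CreNeg RM and 20.1 to 58.9% in CrePos RM, which overlapped (exact permutation p = 0.4, adjusted p = 0.457). Rasgrp3, an exchange factor for Ras and Rap, was the relative with the larger value in CrePos RM, at 34.2 ± 13.9 CPM per kb against 11.4 ± 8.94 in CreNeg RM (SD, n = 3).

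Of 13 axonemal dynein heavy chains with a transcript length, Dnahc12 made up 70.7 to 77.5% in CreNeg RM, and no other heavy chain exceeded a mean of 1.22 CPM per kb there (Dnahc2). In IM its share was 0 to 7.54% in CreNeg and 7.91 to 8.46% in CrePos. In CrePos RM the share was 46.8% in CrePos_RM649, 83.2% in CrePos_RM650 and 25.5% in CrePos_RM661, the widest spread of the 4 families (exact permutation p = 0.4 for the deletion in RM, adjusted p = 0.457). Dnahc12 itself was at 8.46 ± 1.16 and 8.16 ± 2.81 CPM per kb in CreNeg and CrePos RM, and Dnahc11 was at 0.0144 ± 0.0249 and 1.84 ± 1.60 CPM per kb (SD, n = 3). Of 9 markers of ciliated cells in the count tables, 5 passed the filter on low counts. The 9 summed to 112 to 170.3 CPM in CreNeg RM, 98.9 to 121 in CrePos RM, 77.4 to 80.3 in CreNeg IM and 47.0 to 59.8 in CrePos IM. Most of that sum in CreNeg RM was Tppp3 (131 ± 33.9 CPM, SD, n = 3). Of the others, Ccdc40, Dynlrb2, Tekt1, Rsph1 and Sntn had no count in any CreNeg RM library, and Foxj1, the master regulator of motile cilia, was at 0.733 ± 0.883 CPM (SD, n = 3). In CrePos RM none of the 9 was at 0 in all libraries, and Foxj1 was at 5.75 ± 5.23 CPM (SD, n = 3).

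**Figure D4:**
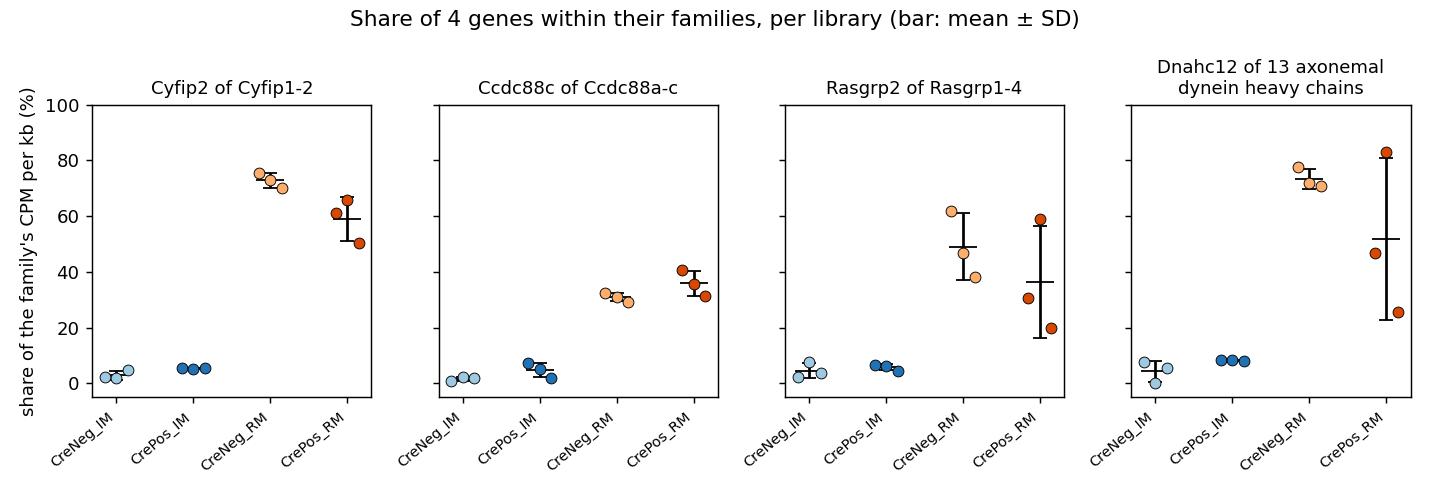
Share of each gene in the summed CPM per kb of its family (vertical axis, %), by group; points are libraries and bars the mean ± SD of 3. Cyfip2 and Dnahc12 make up at least 70.1% of their families in the CreNeg RM libraries and at most 7.54% in CreNeg IM.

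Partners of the genes were taken from lists fixed with the design. Of 14 other tested genes of the WAVE and Arp2/3 machinery, 2 rose from CreNeg IM to CreNeg RM in edgeR, where 4.67% of all genes tested rose: Abi3, a WAVE subunit (log2 fold change 2.72, adjusted p = 0.000581), and Dock2, a Rac activator of leukocytes (2.04, adjusted p = 0.00443). Both calls held with each library left out. Between CrePos RM and IM, where 1.35% of all genes rose, only Abi3 of the 14 rose in edgeR (2.30, adjusted p = 0.00175). Dock2 was at 0.29 there (adjusted p = 0.804). For the deletion in RM, where 0.337% of all genes fell, 1 of the 14 fell, the Rac GTPase Rac2, at 133 ± 18.8 CPM in CreNeg and 35.3 ± 3.03 CPM in CrePos (SD, n = 3; log2 fold change -1.92, edgeR adjusted p = 0.0181). Rac2 passed without CrePos_RM661 (adjusted p = 0.0107) but not without CreNeg_IM648, CreNeg_IM659 or CreNeg_RM657 (adjusted p = 0.0507, 0.0739 and 0.0930), nor with lane as a covariate (adjusted p = 0.0874). Actr3, an Arp2/3 subunit, had -1.20 (adjusted p = 0.0502), and without CrePos_RM661 it passed at -1.14 (adjusted p = 0.0330). The number that fell was 3 in DESeq2 (Rac2, Actr3 and Arpc2, while Abi2 rose), 3 without CrePos_RM661, 2 without CrePos_RM649 or CrePos_RM650, and 4 with the non-exonic share as a covariate. Calls over all genes in either direction changed too, from 0.421% in the reported fit to 7.04% in DESeq2. They were 4 to 570 genes with 1 library left out, and more with the covariate than in the reported fit. The changes in number are therefore not read as a result about the list. The list's median log2 fold change in RM was -0.53 beside -0.10 over all genes.

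Of 21 tested Rap1 and integrin genes besides Rasgrp2, 12 rose in CreNeg RM over CreNeg IM in edgeR, and 8 in CrePos RM over CrePos IM, where 1.35% of all genes rose; none fell in either. Leaving out 1 library gave 7 to 12 in CreNeg, the lowest without CreNeg_IM659, and 3 to 11 in CrePos, where it was 3 or 4 without CrePos_IM649, CrePos_IM650, CrePos_RM649 or CrePos_RM650, 5 without CrePos_IM661 and 11 without CrePos_RM661. They included Itgal, the alpha chain of LFA-1 (log2 fold change 4.58 in CreNeg, adjusted p = 5.39e-05), Itga4 of VLA-4 (3.35, adjusted p = 0.000518), and Rap1gap2 and Rasa3, which switch Rap1 off (3.88, adjusted p = 0.000764, and 2.17, adjusted p = 0.00161). Itgal is also on the list of nonclassical monocyte markers, so these counts are not independent of cell identity. For the deletion in RM 1 of the 21 fell, Fermt3 (kindlin-3, which activates integrins), at 159.9 ± 31.0 CPM in CreNeg and 59.6 ± 10.9 CPM in CrePos (SD, n = 3; log2 fold change -1.42, edgeR adjusted p = 0.0439), while Rasgrp2 had -0.09. Fermt3 passed without CrePos_RM661 (adjusted p = 0.0341), and it missed the threshold without any 1 of CreNeg_IM648, CreNeg_IM659, CreNeg_IM660, CrePos_IM649, CreNeg_RM648, CreNeg_RM657 and CrePos_RM649, with RLE size factors and with lane as a covariate (adjusted p of 0.0565 to 0.163). The number that fell was 3 in DESeq2 (Fermt3, Itgam and Itgb2, while Rapgef3 rose), 3 without CrePos_RM661 or CrePos_RM650, and 7 with the non-exonic share as a covariate, where 1 rose. Here too, calls over all genes changed with the setting, as given above, so these numbers are not read as a result about the list.

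Of 14 tested Wnt and G protein genes around Ccdc88c, only Ccdc88a rose in CreNeg RM over IM (log2 fold change 1.65, adjusted p = 0.00884). Of 9 tested partners of Setbp1, none passed edgeR between CreNeg RM and IM (1 had an unadjusted p under 0.05), and Runx1 was lower in CrePos RM than in CrePos IM (-1.57, adjusted p = 0.00718), as were 3.22% of all genes. Among 10 tested genes around Ldlrad3, Smurf2 rose in CreNeg RM against IM in edgeR (0.78, adjusted p = 0.0444). App (-1.19, adjusted p = 0.0233) and the ligase Wwp1 (-1.27, adjusted p = 0.0473) fell there, as did 2.81% of all genes. Wwp1 was also lower in CrePos RM than in CrePos IM (-1.91, adjusted p = 0.00666), and no other gene of this list passed there. Of 12 centriole genes, Pcnt alone rose in CreNeg RM over IM (1.23, adjusted p = 0.0115). Between CrePos RM and IM, no gene of the Ccdc88c list or the centriole list passed. With 1 library left out, calls between CreNeg RM and IM were lost. That of Ccdc88a was lost without CreNeg_IM648, CreNeg_IM659 or CreNeg_RM648, and that of Pcnt without CreNeg_IM659, CreNeg_IM660 or CreNeg_RM648. That of App was lost on leaving out any 1 CreNeg IM library, CreNeg_RM648 or CreNeg_RM657. For Wwp1 it was any 1 CreNeg library, CrePos_IM649 or CrePos_IM650, and for Smurf2 any 1 CreNeg or CrePos_IM library. The call of Runx1 between CrePos RM and IM held. None of the 14 other axonemal dyneins passed edgeR between RM and IM (1 had an unadjusted p under 0.05 in CreNeg and 0 in CrePos) or for the deletion in RM (4) or IM (0). Shares of all genes with an unadjusted p under 0.05 were 20.1% between CreNeg RM and IM and 15.4% between CrePos RM and IM. They were 16.1% for the deletion in RM and 9.84% in IM. With the deletion in RM, 12 of the 14 dyneins had a log2 fold change above 0 and 2 below (median 2.22, beside -0.10 over all genes). In IM 13 were above 0 and 1 below (median 1.20, beside 0.07), and no test was made of the list. In DESeq2, Dnahc11 and Dnahc5 rose with the deletion in RM (adjusted p = 3.97e-05 and 0.0362), as did Nedd4 of the Ldlrad3 list, while Ccdc88b and Ppp2r1b of the Ccdc88c and Setbp1 lists fell (adjusted p = 0.0156, 0.0231 and 0.0411), and without CrePos_RM661 Dnahc11 also passed in edgeR (adjusted p = 0.0470). For the deletion in IM none of 94 partners over all lists passed edgeR and 16 had an unadjusted p under 0.05, beside 9.84% of all genes. In DESeq2, where 4.62% of all genes with an adjusted p passed, Gnai2 and Rac2 fell and Pcnt rose (adjusted p = 0.00485, 0.00642 and 0.0241).

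Likeness of pattern was measured as the root mean square difference of log2 CPM, each gene centred on its own mean, over the 12 libraries and 6133 candidate genes. Of the 21 nearest neighbours (3 for each gene), 15 were other genes of the set. The set was chosen by RM over IM in these same libraries, and the part of that choice in the 15 was not tested. The others were Itgal (near Cyfip2, Mdm1 and Ldlrad3), Ceacam1 (the nearest to Ldlrad3, at 0.26, and to Rasgrp2, at 0.37) and LOC100861753 (near Rasgrp2). Dnahc12 had the least close neighbours, from 1.07 (Mdm1) upward. Itgal and Ceacam1, both nonclassical monocyte markers, had log2 fold changes of -0.94 (adjusted p = 0.215) and -0.97 (adjusted p = 0.249) for the deletion in RM in edgeR. Without CrePos_RM661 they were -0.58 (adjusted p = 0.228) and -0.65 (adjusted p = 0.309). With all libraries, all 25 nonclassical monocyte markers had a log2 fold change below 0 for that deletion. Their median was -0.94, with 1 of 25, Cebpb, past the threshold, beside a median of -0.18 for the 7 genes. Both medians include CrePos_RM661.

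In IM the summed nonclassical monocyte markers were lower in every CrePos library than in any CreNeg library, and the sum of the 7 genes was higher, although Setbp1, Mdm1, Ldlrad3 and Rasgrp2 each overlapped between the groups. The sum of the markers was 3698 to 4150 CPM in CreNeg IM and 2822 to 3212 CPM in CrePos IM, whereas the summed level of the 7 genes was 36.0, 42.5 and 45.1 CPM in CreNeg IM and 95.3, 95.1 and 54.1 CPM in CrePos IM. In RM the same sum was 2339, 1649 and 1509 CPM in CreNeg and 1689, 1776 and 585 CPM in CrePos. The 13 T and NK cell markers had overlapping sums, 28.0 to 156 CPM in RM and 80.2 to 164 CPM in IM. Cd3e was at most 1.80 CPM in any group mean. Of 12 tested, 10 had a log2 fold change above 0 between CreNeg RM and IM (median 1.66, beside -0.06 over all genes). Between CrePos RM and IM 7 were above 0 and 5 below (median 0.88, beside -0.14). In CreNeg 1 rose and 1 fell past the edgeR threshold, where 4.67% and 2.81% of all genes did. In CrePos 1 fell, as did 3.22% of all genes.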

How the data were processed

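The authors deposited 1 file of raw read counts per gene for each library, not normalized, with 5 summary rows that held 45.0 to 74.1% of the reads and were left out. The submitters' processing notes name HTSeq 0.6.0, TopHat2 2.1.1, cutadapt 1.12 and the build GRCm38 (mm10). Annotation and strand setting are not given there. Groups and replicate numbers were read from the sample titles. Computations used R 4.3.3, edgeR 4.0.16, limma 3.58.1 and DESeq2 1.42.0, with matplotlib for figures. All 12 libraries entered 1 robust quasi-likelihood fit (TMM scaling, filterByExpr with a minimum count of 10), with Benjamini-Hochberg adjustment over 14254 genes and a threshold of 0.05. CPM use TMM-scaled library sizes. The scripts were tested on simulated data. Named genes are the 7 members, the 3 nearest genes of each, and list genes past the threshold (up to 4 per list) or defining markers. Treml4, Ace, Actr3, Rasgrp3, Dnahc11, Dnahc5, Dnahc2, Gnai2, Cebpb, Tppp3, Abi2, Arpc2, Itgam, Itgb2, Rapgef3, Nedd4, Ccdc88b and Ppp2r1b were named after their values were seen. The members and lists were chosen with earlier results of these data known. Alternatives were another scaling, no filter, DESeq2, limma voom, covariates, fewer libraries and each library left out; applying them to the partner genes and their counts was chosen after seeing the data. Libraries of a group differed by more than sampling noise. IM and RM libraries with the same number did not deviate together (correlations of -0.0654 to 0.0809 over 5 pairs), so the numbers were not used to pair them.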

Additional observations from a re-analysis of the deposited data

Results flagged for a closer look

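Cyfip2 was picked out because the CrePos values lay on opposite sides in the 2 cell types: each CrePos RM library lay below every CreNeg RM library, and each CrePos IM library lay above every CreNeg IM library. The difference of the effects was -1.69 on the log2 scale, and by edgeR it did not pass after adjustment (adjusted p = 0.454).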

How the results depend on the processing

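The number of genes past the threshold depended strongly on the method. For the deletion in RM it was 60 in the reported fit, 153 without a filter, 953 in DESeq2, 0 with only the 6 RM libraries, 3 with lane and 351 with the non-exonic share as a covariate, 195 in limma voom, and 4 to 570 with 1 library left out. For the deletion in IM it was 41, and then 77, 376, 950 (only the 6 IM libraries), 0, 0, 180 and 0 to 234. For the difference it was 0 in the reported fit, 66 in DESeq2, 2 in limma voom and 0 to 34 with 1 library left out. Of the 7 genes, 2 passed in IM in DESeq2, 0 to 1 with 1 library left out (Ccdc88c without CrePos_RM661), and 1 in RM with the non-exonic covariate (Cyfip2); none passed for the difference. Rac2 and Fermt3 also missed the threshold with only the 6 RM libraries (adjusted p = 0.237 and 0.277). The cause of these changes was not tested.

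Signs turned for small effects. With the non-exonic covariate they also turned for larger IM effects, which were 0.87 (Cyfip2), 1.96 (Ccdc88c) and 1.40 (Setbp1) in the reported fit. In RM, Dnahc12 and Rasgrp2 were at 0.092 and 0.051 with RLE size factors, 0.056 and 0.020 without a filter, 0.092 and 0.051 in DESeq2, and 0.064 and 0.026 with only RM libraries; Dnahc12 was at 0.0079 with lane. Setbp1 in RM was -0.21 in limma voom and -0.62 with the non-exonic covariate. With that covariate the IM effects were -0.86 (Cyfip2), -0.20 (Ccdc88c), -1.42 (Setbp1), -2.27 (Mdm1), -1.23 (Ldlrad3) and -1.28 (Rasgrp2), and the differences were 0.80 (Setbp1), 1.40 (Mdm1), 0.11 (Ldlrad3) and 0.78 (Rasgrp2). With 1 library left out, RM effects ran from -0.65 to 0.052 (Ccdc88c), -0.20 to 0.52 (Setbp1), -0.53 to 0.19 (Mdm1), -0.34 to 0.17 (Dnahc12) and -0.65 to 0.29 (Rasgrp2); IM effects from -0.38 to 0.60 (Mdm1) and -0.091 to 0.91 (Rasgrp2); and differences from -0.78 to 0.31 (Mdm1) and -0.89 to 0.058 (Rasgrp2). By CPM, not per kb, Ccdc88c and Setbp1 ranked 2 and 3 in CreNeg RM, and per kb 4 and 6.

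A replicate block on the shared numbers was tried although the numbers do not pair the libraries. With a random replicate block in limma voom, 196 genes passed in RM, 181 in IM and 2 for the difference, with Setbp1 at -0.21 in RM, against 195, 180 and 2 unblocked. A fixed replicate block in edgeR gave 0 for the difference. With that block, 5 of the 21 Rap1 and integrin genes rose between CreNeg RM and IM, against 12, and 3 between CrePos RM and IM, against 8, and the calls of Smurf2, App, Wwp1 and Pcnt were lost. None of the 7 genes passed in a blocked fit.

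At 54 to 516 counts over a group of 3 libraries, IM levels have little precision, and 3 libraries per group allow no exact p below 0.1.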
